A study of Homo sapiens with 8 samples.

Results

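The HOXB genes of chromosome 17 were followed through 8 RNA sequencing libraries of a leukaemia line. The 8 listed members (HOXB2, HOXB3, HOXB4, HOXB5, HOXB6, HOXB7, HOXB8 and HOXB9) were found by Ensembl identifier among 34618 measured genes, and all 8 passed the filter on low counts. The submitters label the cells THP1, the name of an established monocytic leukaemia line with a KMT2A fusion. In the 4 MOCK libraries the cells carried an empty vector, and in the 4 RRM2_OE libraries they carried the iRxI/AxA mutant, which the sample descriptions call RRM2 OE. Both groups were grown in Tet-approved serum and given doxycycline at 2 µg/mL, so the drug was shared by the controls. RRM2 encodes a subunit of ribonucleotide reductase, which supplies the cell with deoxynucleotides, and the study compared the cells with and without the mutant. The labels name no promoter or clone. Nothing in them says that replicates are separate cultures, and p-values here reflect only library-to-library spread, which may be technical.

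HOX genes encode transcription factors that bind DNA through a homeodomain, usually together with PBX and MEIS partner proteins. They sit in clusters, and in the embryo the order of the genes along a cluster matches the order in which they act along the body axis. In blood, HOXA and HOXB genes are expressed in stem and progenitor cells and fall as cells mature. HOXB4 is known for expanding haematopoietic stem cells when enforced, and enforced HOXB8 holds myeloid progenitors in an immature, dividing state. Leukaemias with a KMT2A fusion are best known for expressing HOXA genes and MEIS1, whereas joint HOXA and HOXB expression is typical of leukaemias with mutated NPM1.

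All 8 members lie on the minus strand of chromosome 17 within 92.7 kb (hg19). From the anterior end, HOXB2 (ENSG00000173917) spans chr17:46618256-46623441, HOXB3 (ENSG00000120093) chr17:46626232-46682274 and HOXB4 (ENSG00000182742) chr17:46652875-46657473. HOXB5 (ENSG00000120075) spans chr17:46668619-46671323 and HOXB6 (ENSG00000108511) chr17:46671639-46682354. HOXB7 (ENSG00000260027) spans chr17:46684594-46710934, HOXB8 (ENSG00000120068) chr17:46688739-46692478 and HOXB9 (ENSG00000170689) chr17:46698518-46703839. The deposited span of HOXB3 thus holds HOXB4, HOXB5 and most of HOXB6, and that of HOXB7 holds HOXB8 and HOXB9.

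The members are close relatives, so the stretch in which their transcripts resemble each other most was compared first, because a read that fits several members cannot be assigned to one. In the coding sequences of GENCODE 29, the 180-base window most alike across the 8 genes fell in the homeobox, which encodes the homeodomain. The 28 pairs of members were identical at 59.4% to 88.9% of its bases, with HOXB6 and HOXB7 the closest pair. The 60 bases of the window that held most shared positions are printed 5′ to 3′ for that pair and for HOXB2 and HOXB9, the ends of the expressed block. Capitals mark the 35 bases that are the same in all 8 members.
HOXB2: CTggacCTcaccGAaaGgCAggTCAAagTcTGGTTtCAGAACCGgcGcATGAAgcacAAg
HOXB6: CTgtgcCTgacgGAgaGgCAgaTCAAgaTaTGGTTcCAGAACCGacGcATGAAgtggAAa
HOXB7: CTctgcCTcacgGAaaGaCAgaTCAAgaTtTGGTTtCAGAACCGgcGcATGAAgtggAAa
HOXB9: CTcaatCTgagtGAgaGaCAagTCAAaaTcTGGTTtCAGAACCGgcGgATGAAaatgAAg
Differences are scattered through the box, but identical runs were not always short. HOXB4 and HOXB5, not printed here, shared 1 run of 50 bases within this stretch. Of the distinct 50-base words in their GENCODE 29 transcripts, HOXB8 and HOXB9 shared none with a transcript of another gene on either strand. HOXB7 shared 24 of 1472, of which only 2 were with HOXB6. The larger overlaps were between gene models that share exons: HOXB6 shared 385 of its 2649 words with HOXB3 in the same sense, and HOXB4 shared 433 of 3708 with the gene model AC103702.1. Values of HOXB3, HOXB4 and HOXB6 are therefore uncertain to the extent that reads there were split or dropped.

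Every member was expressed in every library, and levels did not follow the order of the genes along the chromosome. Levels between genes are compared here as RPKM, reads per kilobase of exon scaled to library size, as deposited. HOXB9, a posterior-type gene, was the highest at 36.3 RPKM in its lowest library, 45.6 RPKM at the median and 51.8 RPKM in its highest. HOXB3, near the anterior end, followed at 18.7 to 20.6 RPKM, and its range did not overlap with that of HOXB9. HOXB8 lay at 14.3 to 20.0 RPKM, HOXB2 at 12.9 to 17.7 RPKM and HOXB6 at 13.9 to 15.8 RPKM. HOXB3, HOXB8, HOXB2 and HOXB6 were thus neighbours whose ranges overlapped at each step, and HOXB2 exceeded HOXB6 in only 4 of the 8 libraries.

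The lowest levels belonged to HOXB5, HOXB7 and HOXB4. HOXB5 lay at 9.98 to 12.9 RPKM, below HOXB6 in all 8 libraries and without overlap. HOXB7 lay at 7.77 to 12.6 RPKM and HOXB4 at 7.55 to 11.2 RPKM, and neither neighbouring pair in this order was separate. Among all 34618 genes, HOXB9 exceeded 97.4% and HOXB4, the lowest member, 83.7%. HOXB9 alone took 28.9% to 32.9% of the summed RPKM of the 8 members in each library.

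**Figure D1:**
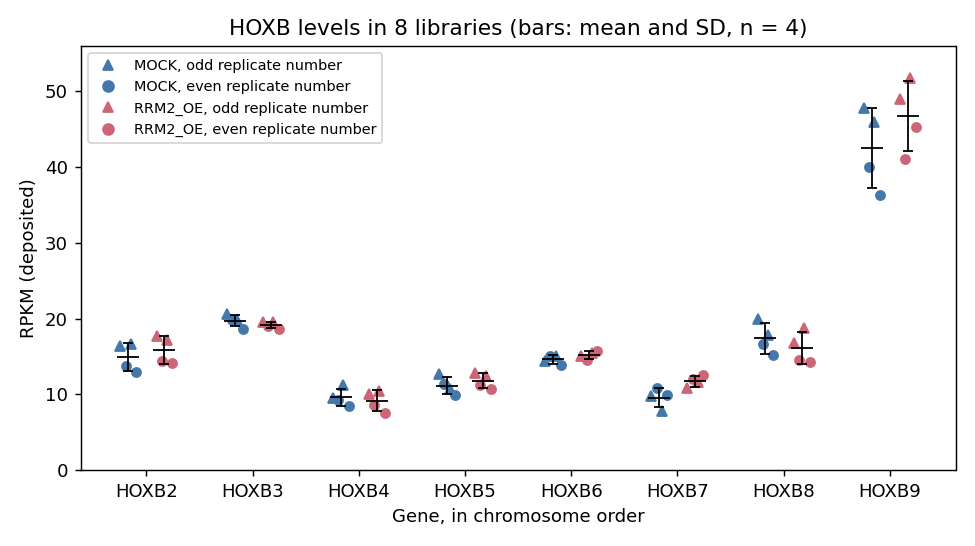
RPKM of each HOXB gene (vertical axis) in chromosome order, with MOCK and RRM2_OE libraries side by side, triangles for odd and circles for even replicate numbers, and bars for the mean and SD of 4 libraries. HOXB9 stands above the other members in all 8 libraries, and its odd-numbered libraries lie above its even-numbered ones.

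The order of the middle genes depended on the exon length used. The deposited lengths of HOXB2 and HOXB6, 3460 and 4078 bases, exceed the 2336 and 2604 exonic bases of GENCODE 29. With the latter, HOXB6 rose to 23.4 RPKM and HOXB2 to 22.8 RPKM, above HOXB3 at 19.5 RPKM, while HOXB9 remained highest at 46.8 RPKM and HOXB4 lowest at 9.41 RPKM. In CPM (counts scaled to a common library size), which ignores length, HOXB3 exceeded HOXB9 in all 8 libraries.

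The expressed block ended sharply on both sides. HOXB1, the anterior end of the cluster and next to HOXB2, had 0 counts in all 4 MOCK libraries and 1 or 2 counts in each RRM2_OE library, 5 in all, under the 3 counts per library that a count of 0 allows (0.104 RPKM or more). HOXB13, the most posterior HOXB gene, had 0 counts in all 8 libraries, which allows up to 0.0787 RPKM (counting error only). The neighbours PRAC1 and PRAC2 were also at 0. At the posterior edge the antisense gene HOXB-AS4, whose span overlaps that of HOXB7, likewise had 0 counts in every library.

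HOXB1 is the only HOXB protein-coding gene in the RefSeq promoter table used here, and its promoter is printed because it marks the silent edge of the block. It is the minus strand of chr17:48530962-48531261 of GRCh38.p14 (hg19 is the build of all other coordinates here), from 250 bases before the start to 50 after it, 5′ to 3′. Capitals mark the single match, on either strand, to TGATNNAT, a form of the site bound jointly by PBX and HOX proteins.
HOXB1: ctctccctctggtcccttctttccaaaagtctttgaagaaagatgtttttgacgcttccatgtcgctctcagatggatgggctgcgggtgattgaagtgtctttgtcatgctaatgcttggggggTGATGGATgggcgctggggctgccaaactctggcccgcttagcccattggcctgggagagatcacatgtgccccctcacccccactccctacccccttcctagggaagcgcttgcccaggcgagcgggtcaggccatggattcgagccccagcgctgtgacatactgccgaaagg
Of the 35114 RefSeq promoters of this length, 7.4% held such a match, and the match is a description of the sequence only.

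Inside the block, HOXB-AS1 and HOXB-AS3 were measured at levels within the range of the members, and HOXB-AS2 below it. HOXB-AS3, whose deposited span covers HOXB4, HOXB5 and HOXB6 on the opposite strand, lay at 27.6 to 30.7 RPKM. HOXB-AS1, opposite HOXB2 and HOXB3, lay at 13.2 to 16.5 RPKM, and HOXB-AS2, within HOXB3, at 2.75 to 5.39 RPKM. In GENCODE 29, HOXB-AS3 exons cover 16.3% of the exonic bases of HOXB6 and 3.6% of those of HOXB5. The libraries were stranded. How the counting used strand is not given in the sources used here, so sense and antisense reads in those bases may not have been kept apart.

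**Figure D2:**
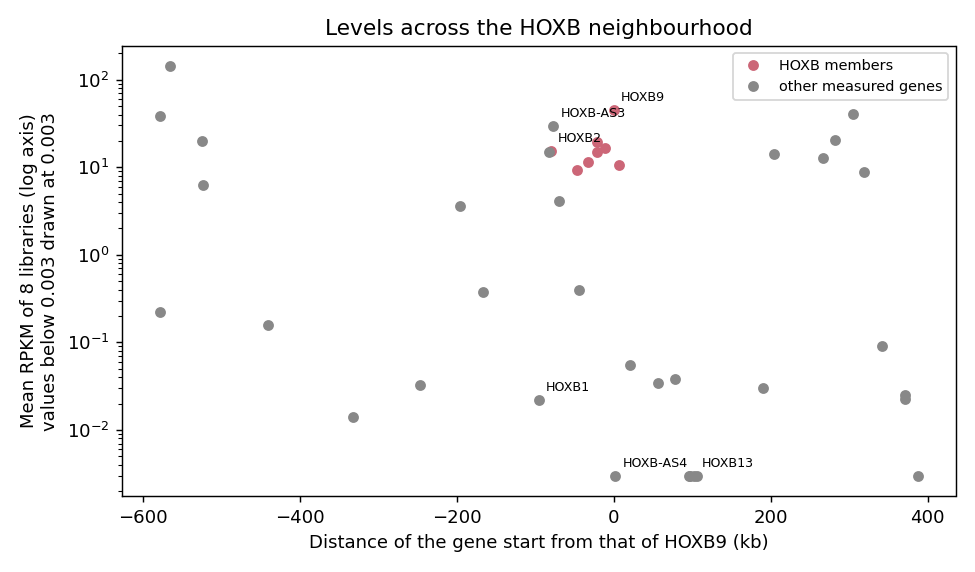
Mean RPKM over 8 libraries (log axis) of every measured gene within 500 kb of the members against the distance of its start from that of HOXB9, with values under 0.003 drawn at 0.003. The 8 members form a block between 9.41 and 44.7 RPKM, with HOXB1 on one side and HOXB13 on the other at or near 0.

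Compared with the other HOX clusters, HOXB and HOXA were on, and HOXC and HOXD were off. The summed RPKM of the 8 HOXB members was 126 to 157 per library and that of all HOXA genes 99.8 to 113, and HOXB exceeded HOXA in all 8 libraries, by 1.26 to 1.49 times. HOXA9, the HOXA gene most tied to KMT2A fusions, lay at 36.1 to 40.4 RPKM, close to HOXB9. MEIS1 lay at 0.949 to 1.20 RPKM. No HOXC or HOXD gene, 18 in all, had more than 5 counts in a library. The summed HOXC level stayed at or under 0.256 RPKM and that of HOXD at or under 0.185 RPKM.

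The libraries themselves held between 10994255 and 11686152 counts. RRM2 rose from 116 to 128 CPM in MOCK to 215 to 236 CPM in RRM2_OE (log2 fold change 0.87, SE 0.05, edgeR adjusted p = 5.64e-07), in the direction of the labels. Of 14 myeloid and monocytic markers 13 could be tested, and LYZ lay at 1595 to 2307 CPM, SPI1 at 239 to 336 CPM and CD14 at 9.02 to 13.9 CPM, while CD68 stayed at or under 1.13 CPM. Against what is commonly described for the labelled line, CDKN2A lay at 44.6 to 56.3 CPM, and the erythroid factor GATA1 at 96.1 to 114 CPM. THP1 is described as lacking CDKN2A and as monocytic, so these genes go against the label, which is kept here as the submitters gave it. The 8 erythroid and megakaryocyte markers summed to 579 to 609 CPM in MOCK and 568 to 603 CPM in RRM2_OE. Within these near-equal sums HBG1, HBG2 and ALAS2, genes of haemoglobin and haem synthesis, fell by 0.57, 0.64 and 0.66, and ITGA2B, a platelet integrin, rose by 0.15 on the log2 scale (edgeR adjusted p up to 0.0318). The 14 myeloid markers summed to 5461 to 5766 CPM in MOCK and 4926 to 5049 CPM in RRM2_OE, but they did not move one way. The granule genes MPO, ELANE and AZU1 fell by 1.40, 1.06 and 0.72 on the log2 scale, while 6 markers rose, among them CD86 by 0.78, CD14 by 0.41 and LYZ by 0.37 (edgeR adjusted p up to 0.0138 for all 9). The 6 T cell markers summed to 16.3 to 20.6 CPM in MOCK and 27.1 to 29.2 CPM in RRM2_OE, most of it CD3D (15.5 to 19.7 and 24.4 to 26.6 CPM). Both tested T cell markers rose, CD3D by 0.55 and CD8A, at most 1.55 CPM, by 1.91 on the log2 scale (edgeR adjusted p up to 0.00194). LCK, at 0 in MOCK and at most 4 counts, was not tested. The 5 B cell markers summed to 6.72 to 10.3 and 10.2 to 12.5 CPM. Of the 3 tested, CD79A alone was called, rising by 0.63 (edgeR adjusted p = 0.0364). The 8 epithelial and fibroblast markers summed to 28.0 to 34.4 and 30.7 to 34.8 CPM. The part of these marker lists in the HOXB values was not tested.

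Whether a HOXB gene passed the threshold between RRM2_OE and MOCK depended on whether the fit held replicate number. With group alone, none of the 8 members passed the test in either direction (edgeR's quasi-likelihood test, Benjamini-Hochberg adjustment over 15286 genes), against 7.41% of all genes called higher and 5.42% called lower. At an unadjusted p below 0.05, 1 member, HOXB7, passed, against 26.6% of all genes. DESeq2 and limma-voom also called 0 members, where they called 11.3% and 12.5% of all genes, and these fits ignore replicate number too. With replicate number as a block, 2 of the 8 were called higher, HOXB7 and HOXB9, against 15.1% of all genes called higher. Their values follow. The median log2 fold change was 0.05 over the members and -0.00280 over all genes tested. Across the members, the 95% intervals of the change ran from 0.772-fold at the lowest (HOXB8) to 1.41-fold at the highest (HOXB7), so changes beyond those bounds lie outside the intervals. In bulk RNA a change in RNA per cell cannot be told apart from a change in the share of cells that express a gene.

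**Figure D3:**
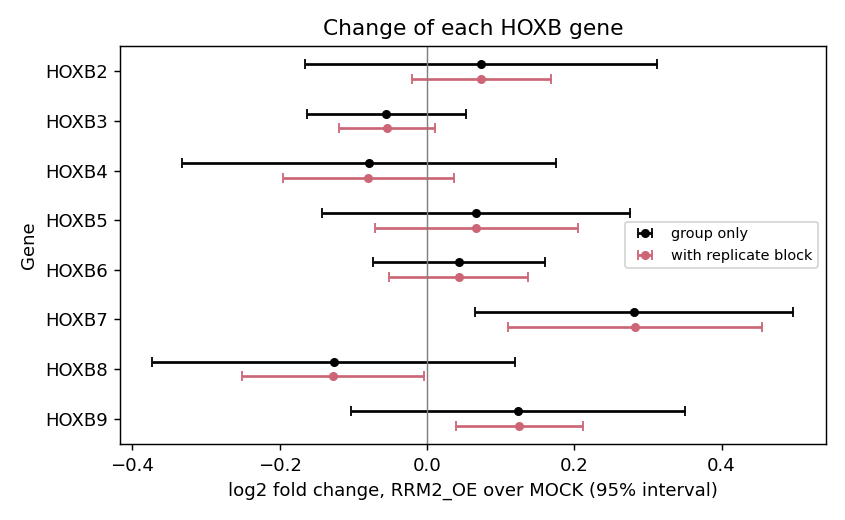
Log2 fold change of each HOXB gene in RRM2_OE over MOCK with its 95% interval from edgeR, without (black) and with (red) replicate number as a block, n = 4 per group. HOXB7 lies highest at 0.28, and with group alone the intervals of the other 7 members include 0.

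HOXB7, a homeodomain factor often studied in carcinoma growth, came nearest to a call. Its MOCK libraries 1 to 4 gave 15.2, 16.6, 11.8 and 14.98 CPM, and its RRM2_OE libraries 16.7, 17.9, 17.8 and 18.9 CPM. The groups did not overlap, but the lowest RRM2_OE library stood only a little above the highest MOCK library, and MOCK replicate 3 lay lowest of all. Of all genes tested, 10.5% had such a higher group without overlap. The log2 fold change was 0.28 (SE 0.10, 95% interval 0.07 to 0.50, edgeR adjusted p = 0.0854), and the difference did not pass the threshold. It was higher in RRM2_OE in all 4 same-numbered pairs, by 0.13, 0.11, 0.59 and 0.34 on the log2 scale. With replicate number as a block HOXB7 was called (log2 fold change 0.28, edgeR adjusted p = 0.0110). Without MOCK replicate 3 the log2 fold change was 0.19 (edgeR adjusted p = 0.190, not blocked).

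HOXB9 overlapped between the groups. It gave 133, 109, 124 and 97.0 CPM in MOCK libraries 1 to 4 and 134, 110, 141 and 121 CPM in RRM2_OE libraries 1 to 4. Pairs 1 and 2 were nearly equal, and pairs 3 and 4 were higher in RRM2_OE, by 0.18 and 0.32 on the log2 scale. The log2 fold change was 0.12 (SE 0.10, edgeR adjusted p = 0.501), and with the block it was 0.13 and called (edgeR adjusted p = 0.0247). With group alone, leaving out single libraries gave HOXB9 0.05 (without MOCK replicate 4) to 0.20 (without MOCK replicate 1), not called in any case. The blocked fit was not repeated in this way. The block called 0 members lower, where it called 15.1% of all genes higher and 14% lower. With odd or even number as the only added term, HOXB7 and HOXB9 were also called, against 15.9% of all genes higher.

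HOXB8, the factor that can arrest myeloid differentiation, had the lowest log2 fold change, -0.13 (SE 0.11, edgeR adjusted p = 0.531). It gave 43.5, 35.4, 37.6 and 31.8 CPM in MOCK libraries 1 to 4 and 35.9, 30.1, 40.0 and 29.8 CPM in RRM2_OE libraries 1 to 4. The groups overlapped widely, and the third pair went against the other three. With the block its adjusted p was 0.118 (edgeR). With group alone, leaving out single libraries gave -0.22 (without RRM2_OE replicate 3) to -0.04 (without MOCK replicate 1), not called in any case.

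The anterior and central members had small differences that did not pass the test with or without the block. HOXB2, a gene of hindbrain patterning, averaged 52.1 ± 7.19 CPM in MOCK and 54.8 ± 7.08 CPM in RRM2_OE (mean ± SD, n = 4), a log2 fold change of 0.07. HOXB3, which acts with HOXB4 in haematopoietic progenitors, averaged 148 ± 8.29 and 143 ± 4.82 CPM, a log2 fold change of -0.05. HOXB4, the stem cell factor, averaged 36.4 ± 4.49 and 34.5 ± 5.44 CPM, a log2 fold change of -0.08. HOXB3 had the narrowest interval, -0.16 to 0.05 on the log2 scale, and HOXB4 the widest, -0.33 to 0.18. HOXB5, described as a marker of long-term stem cells in the mouse, averaged 23.0 ± 2.79 and 24.1 ± 2.31 CPM, and HOXB6, found in early blood progenitors, 60.03 ± 2.82 and 61.9 ± 2.43 CPM. Their log2 fold changes were 0.07 and 0.04. By same-numbered pairs, HOXB2 was higher in RRM2_OE in all 4 (by 0.03 to 0.14 in log2 CPM) and HOXB3 lower in all 4 (-0.10 to -0.00200). HOXB4 was higher in 1 of the 4 pairs, HOXB5 in 2 and HOXB6 in 3. The adjusted p-values of these 5 genes lay between 0.539 and 0.733 (edgeR).

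The antisense genes of the block moved as little: HOXB-AS1 gave a log2 fold change of -0.04, HOXB-AS2 of -0.07 and HOXB-AS3 of 0.02, and none passed (edgeR adjusted p = 0.818, 0.894 and 0.865). Outside the block but within 500 kb, 10 of 28 genes could be tested, with log2 fold changes from -0.03 to 0.17. Of these 10 neighbours, 0 passed the edgeR test, adjusted or at an unadjusted p below 0.05, against 12.8% and 26.6% of all genes. DESeq2 and limma-voom also called 0 of these neighbours, against 11.3% and 12.5% of all genes. With so few genes, a count of 0 is not shown to differ from those shares.

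Most members differed more between replicate numbers than between the vectors. For 7 of the 8 members, the difference between odd-numbered (1 and 3) and even-numbered (2 and 4) libraries was larger than the log2 fold change between the groups. HOXB7 was the exception, and for HOXB6 the values were nearly equal (0.048 and 0.043). The share of all genes with such a larger difference was not counted, so this is not shown to be particular to the members. The labels give the numbers no meaning, so these values are a description with no test. HOXB2 gave 58.5, 57.8, 61.9 and 59.97 CPM in the odd-numbered libraries of MOCK and RRM2_OE, and 48.0, 44.1, 49.1 and 48.4 CPM in the even-numbered ones. All 4 odd-numbered libraries lay above all 4 even-numbered ones, whichever vector they carried. The same separation held for HOXB4 (36.7 to 42.3 against 28.0 to 35.1 CPM), HOXB8 (35.9 to 43.5 against 29.8 to 35.4 CPM) and HOXB9 (124 to 141 against 97.0 to 121 CPM). These were 4 of 8 members, where 9.61% of all genes tested were higher in the odd-numbered libraries without overlap.

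The remaining members overlapped between odd- and even-numbered libraries. The odd minus even difference in log2 CPM was 0.33 for HOXB2, 0.31 for HOXB4, 0.30 for HOXB8 and 0.29 for HOXB9, then 0.19 for HOXB5, 0.09 for HOXB3 and 0.05 for HOXB6. HOXB7 went the other way at -0.16. The median was 0.24 over the members and -0.00132 over all genes tested, whose central range from the 5th to the 95th percentile was -0.31 to 0.36. The summed HOXB level was 145 RPKM or more in each odd-numbered library and 139 RPKM or less in each even-numbered one.

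**Figure D4:**
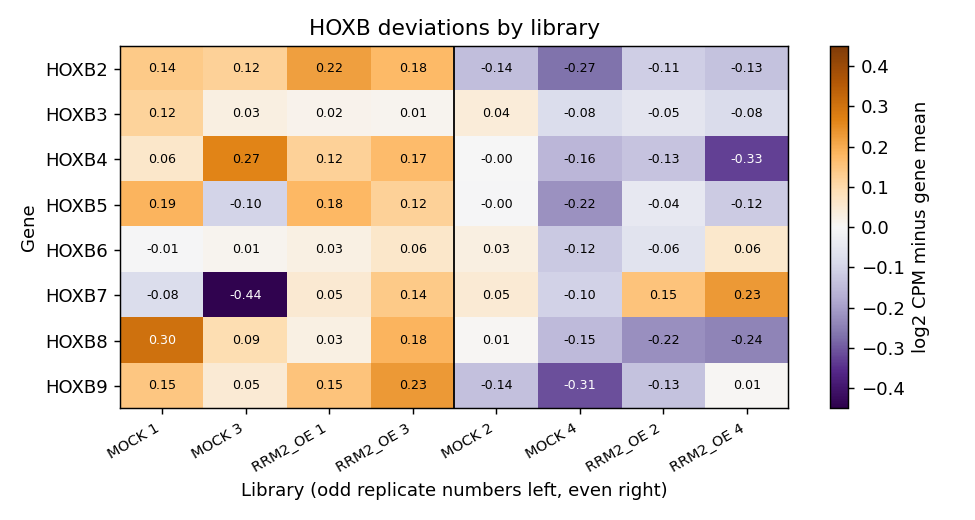
Log2 CPM of each HOXB gene in each library minus the gene's mean over the 8 libraries, with odd-numbered libraries left of the line and even-numbered ones right. HOXB2, HOXB4, HOXB8 and HOXB9 are higher on the left in both groups, and HOXB7 is lowest in MOCK replicate 3, at -0.44.

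The difference between the vectors did not itself pass a test of change with odd or even number. In a fit with group, odd or even number and their interaction, 0 of the 8 members passed (edgeR), 0 had an unadjusted p below 0.05, and the smallest unadjusted p was 0.285, for HOXB4. Over all genes 0% passed and 3.21% had an unadjusted p below 0.05. For HOXB7 the interaction was 0.13 (95% interval -0.21 to 0.46 on the log2 scale). Within replicates 1 and 3 alone HOXB7 gave 0.34 (edgeR adjusted p = 0.0283, called) and within replicates 2 and 4 alone 0.22 (edgeR adjusted p = 0.179). Replicates 1 and 3 called 1 member, HOXB7, and 9.54% of all genes higher. Replicates 2 and 4 called 1 member, HOXB9 (0.16, edgeR adjusted p = 0.0287), and 9.05% of all genes higher.

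Members varied together across libraries to differing degrees, HOXB7 least. Over the 8 libraries, the 21 pairs that leave out HOXB7 had Pearson correlations of log2 CPM from 0.29 to 0.93, with a median of 0.70. The highest was between HOXB2 and HOXB9, at the ends of the block. The 7 pairs with HOXB7 ran from -0.59 to 0.25. Pairs of HOXB6 with HOXB3, HOXB4 and HOXB8 were also low, at 0.34, 0.29 and 0.35. All these points share the odd and even split and the library scaling. No range over all pairs of genes is given, so this is not shown to be particular to the members. Of 11885 genes with a mean of at least 5 CPM outside the block, those most like the members' mean standardised level were CMIP (r = 0.994), MOB3A (0.988), SH3BGRL3 (0.981), ATN1 (0.981) and CRTAP (0.977). All 5 were higher in odd-numbered libraries, by 0.13 to 0.36 in log2 CPM.

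Among the tested cofactors and DNA-binding regulators of HOX genes, 0 were called. Of all genes, 12.8% were called by edgeR, 11.3% by DESeq2 and 12.5% by limma-voom, and 26.6% had an unadjusted p below 0.05 in edgeR. With lists this short, the counts below are not shown to differ from those shares. Of the 9 TALE homeodomain cofactors, 4 were expressed enough to test and 0 passed by edgeR, DESeq2 or limma-voom (1 at an unadjusted p below 0.05 in edgeR). PBX3, a partner of HOX proteins in leukaemia, gave a log2 fold change of -0.13 (18.8 to 23.6 RPKM over 8 libraries), PBX2 of -0.16 and MEIS1 of 0.03. Their median was -0.05. Of 11 tested DNA-binding factors described as HOX regulators, 0 passed by edgeR, DESeq2 or limma-voom (0 at an unadjusted p below 0.05 in edgeR), with a median of -0.05. CDX4 had 0 counts in every library and CDX2 at most 2, while RARA, a receptor through which retinoic acid acts on HOX genes, gave 0.08.

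A few chromatin regulators of HOX clusters were called, where 12.8% of all genes were called in either direction. Of 18 tested genes of the KMT2A complex, its elongation partners and the demethylases that oppose Polycomb, 0 rose and 2 fell, with a median of -0.09. MLLT10, a partner of the methyltransferase DOT1L, fell by 0.19 (edgeR adjusted p = 0.0180), and AFF1, a scaffold of the super elongation complex, fell by 0.16 (edgeR adjusted p = 0.0292). KMT2A itself gave -0.12 and MEN1, its HOX-targeting partner, -0.08, and neither passed. DESeq2 called 3 genes of the list and limma-voom 2. With group alone, the MLLT10 call was lost without MOCK replicate 3 or RRM2_OE replicate 1, and the AFF1 call on leaving out any of 6 single libraries. With replicate number as a block both were called lower, each at an edgeR adjusted p below 0.01. The block called 14% of all genes lower. In replicates 1 and 3 alone both were called, and in replicates 2 and 4 alone AFF1 was called and MLLT10 was not.

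Of 21 tested Polycomb genes, which keep silent HOX genes off, 2 rose and 2 fell, beside the same 12.8% of all genes, with a median of 0.05. DESeq2 called 3 of them, without CBX2, and limma-voom 4. The chromodomain proteins CBX6 and CBX2 rose by 0.40 (edgeR adjusted p = 0.00247) and 0.29 (edgeR adjusted p = 0.0314). JARID2, a PRC2 cofactor, fell by 0.14 and ASXL1, a partner of the deubiquitinase BAP1, by 0.17 on the log2 scale. The catalytic subunit EZH2 gave 0.15 and did not pass (edgeR adjusted p = 0.161). With group alone, the JARID2 call was lost on leaving out any single library. The CBX2 and ASXL1 calls were lost on leaving out any of 6 and 5 single libraries, whereas CBX6 kept its call without each library in turn (edgeR adjusted p up to 0.0107). With replicate number as a block CBX6, CBX2, JARID2 and ASXL1 were called in the same directions, each at an edgeR adjusted p below 0.01. The block called 15.1% of all genes higher and 14% lower. In replicates 1 and 3 alone CBX6, ASXL1 and JARID2 were called, and CBX2 was not. In replicates 2 and 4 alone CBX6 and ASXL1 were called, and JARID2 and CBX2 were not.

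Of the HOXA genes, HOXA9 gave a log2 fold change of -0.08 (edgeR adjusted p = 0.353) and HOXA10, also studied in leukaemia, of 0.03 (edgeR adjusted p = 0.760). Neither passed the test.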

How the data were processed

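RNA was sequenced in 4 MOCK and 4 RRM2_OE libraries made from 200 ng of total RNA with a stranded poly(A) kit, per the labels' protocols. Tools listed without roles in the submitters' processing notes are HTSeq 0.11.2, TopHat2 and bcl2fastq 2.18.0.12, with the build hg19. The authors deposited whole-number read counts per Ensembl gene, and RPKM values that were recomputed here from the counts, library totals and exon lengths to within 4.7e-06. Groups came from the sample descriptions, and symbols from a table of current names by Ensembl ID.

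The group comparison used edgeR 4.0.16 under R 4.3.3 (filterByExpr, TMM, robust quasi-likelihood fit on group alone, 15286 genes, Benjamini-Hochberg adjustment, threshold 0.05). Levels in CPM use TMM-scaled library sizes, and log2 CPM a prior count of 2. The members, gene lists and alternatives were chosen with earlier results of these data known. Named outside the members were HOX genes of other clusters (some items are not reported here), up to 4 called genes per list, genes in or within 500 kb of the block, and the 5 genes most like it. The fit was tested on simulated data with the same spread for every gene and no odd and even difference. It recovered 14 of 67 genes changed by 0.25 on the log2 scale and 48 of 67 changed by 0.5, so changes of the members' size would often be missed.

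Same-numbered libraries deviated together (correlations of log2 CPM deviations 0.25, 0.23, 0.22 and 0.23). Like-parity libraries of other numbers correlated as much (0.23 to 0.29), so pairing by number cannot be told apart from the odd and even split. The block entered as an alternative. Other alternatives were DESeq2 1.42.0, limma-voom and limma on log2 RPKM (limma 3.58.1), other scalings and filters, an odd/even term and leaving out libraries. Promoter and transcript sequences came from RefSeq (GRCh38.p14) and GENCODE 29.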

Additional observations from a re-analysis of the deposited data

How the results depend on the processing

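The 8 members' fold changes were recomputed under 21 alternatives each, 168 values in all, of which 162 kept their side of the threshold, 6 passed it and 0 reversed across it. All 6 belonged to HOXB7 or HOXB9. With replicate number as a block, 2 members were called higher (15.1% of all genes), as also with an odd/even term (2 members, 15.9% of all genes). In replicates 1 and 3 alone 1 was called higher (9.54% of all genes), and in replicates 2 and 4 alone 1 (9.05%). The block changed no other member's call. Over the alternatives HOXB7 ranged from 0.19 to 0.35 on the log2 scale, with adjusted p from 0.00650 to 0.190. Leaving out single libraries, with group alone in the fit, left 0 members called higher and 0 lower throughout.

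Over all genes, the block called 2303 higher and 2143 lower (main 1133 and 829), the odd/even term 2427 and 2277, and a threshold of 0.01 called 530 and 281. Fewer genes were lower by limma on log2(RPKM + 1), 465, and on log2(RPKM + 0.1), 466, where 69.2% and 68.7% of calls were higher against 57.7% in the counts. Replicates 1 and 3 alone called 1330 lower. Leaving out single libraries gave 808 to 937 genes higher and 542 to 607 lower, with 542 without MOCK replicate 2 and 545 without RRM2_OE replicate 1 or RRM2_OE replicate 3. The cause was not tested. The interaction call stayed at 0 members when 1 CPM in 4 libraries was required. The log2 ratio of HOXB9 to HOXB3, 1.19 in RPKM, reversed to -0.27 in CPM, because length is then ignored, and was 1.26 with GENCODE 29 lengths, an alternative chosen after seeing the data. HOXB7 had the lowest counts of the members, 132 to 219.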

Other observations

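Ratios between members within a library were examined after the values were seen, so they are given as a description with no test. Of the 28 pairs of members, 4 had ratios of RPKM that did not overlap between the groups, where 17.7% of all pairs of 15282 genes with reads in every library had such ratios. Such ratios were thus no more frequent among the members than among all pairs. In the 4, the ratio of the gene named first to the second was lower in RRM2_OE, and naming the genes the other way reverses this. The gaps of HOXB3 to HOXB6 and of HOXB6 to HOXB7 were very small, and HOXB3 and HOXB6 share exonic bases. HOXB8 to HOXB9 ran from 0.387 to 0.419 in MOCK and 0.316 to 0.363 in RRM2_OE, and HOXB3 to HOXB6 from 1.314 to 1.423 in MOCK and 1.185 to 1.313 in RRM2_OE. The other pairs were HOXB3 to HOXB7 (1.83 to 2.56 against 1.48 to 1.79) and HOXB6 to HOXB7 (1.39 to 1.93 against 1.21 to 1.38). HOXB8 and HOXB9 both differed between odd- and even-numbered libraries, yet their ratio did not separate those libraries: MOCK replicates 1 to 4 gave HOXB9 to HOXB8 ratios of 2.39, 2.41, 2.58 and 2.38, and RRM2_OE replicates 1 to 4 gave 2.92, 2.84, 2.75 and 3.17.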
